A study of Mus musculus with 41 samples.

Results

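Notch receptors, ligands and targets were followed as 10 genes, out of 43346 in the table of counts, taken from the table by their gene symbols. They are the receptors Notch1, Notch2, Notch3 and Notch4, the ligands Jag1, Jag2, Dll1 and Dll4, and the target genes Hes1 and Hey1. RNA came from the tibia diaphyses of 41 female mice on a C57BL/6 background, all of which carried the INK-ATTAC transgene. In this line the p16Ink4a promoter drives a caspase that the drug AP20187 (AP) switches on. There were 12 young mice (6 to 12 months of age and vehicle-treated by the labels), 13 old + vehicle-treated mice and 16 old + AP-treated mice. Old mice were 20 months of age when injections began and 24 months when they ended, and AP was given at 10 mg per kg. A young group given AP and old mice without the transgene were not analysed here. The bones had been centrifuged to remove marrow before RNA was extracted.

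Notch signalling passes between neighbouring cells. A ligand of the Jagged or Delta-like family on 1 cell binds a Notch receptor on the next, the receptor is cut by ADAM proteases and then by gamma-secretase, and its intracellular domain enters the nucleus. There it joins the DNA-binding protein RBPJ and Mastermind-like coactivators and switches on genes such as Hes1 and Hey1, which encode transcriptional repressors. In bone the pathway is known for its part in osteoblast lineage cells and in the vessels that run through bone.

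Total counts per mouse ranged from 37028959 to 75942717. Markers of bone were read in every mouse: Dmp1, an osteocyte gene, averaged 545 CPM (counts scaled to a common library size) in young mice and Bglap, the osteocalcin gene, 880 CPM. Pecam1 and Cdh5, adhesion genes of endothelium, averaged 149 and 92.9 CPM in the same mice. RNA of other tissues was present as well. The summed level of 8 skeletal muscle markers ran from 7090 to 105000 CPM, and that of 7 neutrophil markers from 4710 to 32600 CPM. Old + AP-treated mice 18 and 19 stood apart. Their osteocyte markers summed to 275 and 283 CPM, against a lowest value of 905 CPM in old + vehicle-treated mice, and they had the lowest endothelial, arterial, mural and skeletal muscle scores of their group. Mouse 19 had its highest neutrophil and megakaryocyte scores and mouse 18 its highest T cell score. Among vehicle-treated mice, mouse 16 had the lowest neutrophil, erythroid, B cell, T cell and osteocyte scores. Some results, but not all, are also given without some or all of these 3 mice. Cdkn2a, the gene of p16Ink4a, averaged 0.596 CPM in young mice, 2.78 CPM with vehicle and 1.75 CPM with AP. Its log2 fold change was 2.22 with vehicle against young (adjusted p = 0.000332 from edgeR) and -0.67 with AP against vehicle (adjusted p = 0.265).

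All 10 genes passed the filter on low counts and none had a count of 0 in any mouse. Levels of different genes were compared per length, as RPKM, which divides CPM by the length of the gene model. Over all 41 mice Notch2 stood highest, at 16.9 ± 2.93 RPKM (SD, n = 41), and it exceeded Notch3 in 41 of 41 mice. Notch3 followed at 8.26 ± 2.24, then Hes1 at 7.46 ± 2.69 and Notch1 at 6.06 ± 1.32 RPKM. Jag2 (5.18 ± 1.80), Dll4 (4.95 ± 1.33) and Jag1 (4.78 ± 0.932 RPKM) lay close together, with Jag2 above Dll4 in 22 of 41 mice and Dll4 above Jag1 in 22 of 41. Their order by group mean was Jag1, Dll4, Jag2 in young mice (4.87, 4.58 and 4.28 RPKM) and the reverse with vehicle (4.77, 5.50 and 6.43 RPKM). With vehicle the mean of Hes1 also lay above that of Notch3, and that of Jag2 above that of Notch1. Notch4 (3.77 ± 1.11), Hey1 (3.06 ± 0.868) and Dll1 (2.10 ± 0.852 RPKM) were lowest, and Hey1 exceeded Dll1 in 37 of 41 mice. Of the summed RPKM of the 4 receptors, the share of Notch2 was 50.8% ± 3.31 (SD, n = 12 young), 44.6% ± 3.94 (SD, n = 13 with vehicle) and 49.7% ± 6.79 (SD, n = 16 with AP). Dll1 made up 9.86% ± 1.06, 13.3% ± 2.81 and 12.9% ± 1.63 of the summed RPKM of the 4 ligands in the same order. These shares were not tested.

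**Figure D1:**
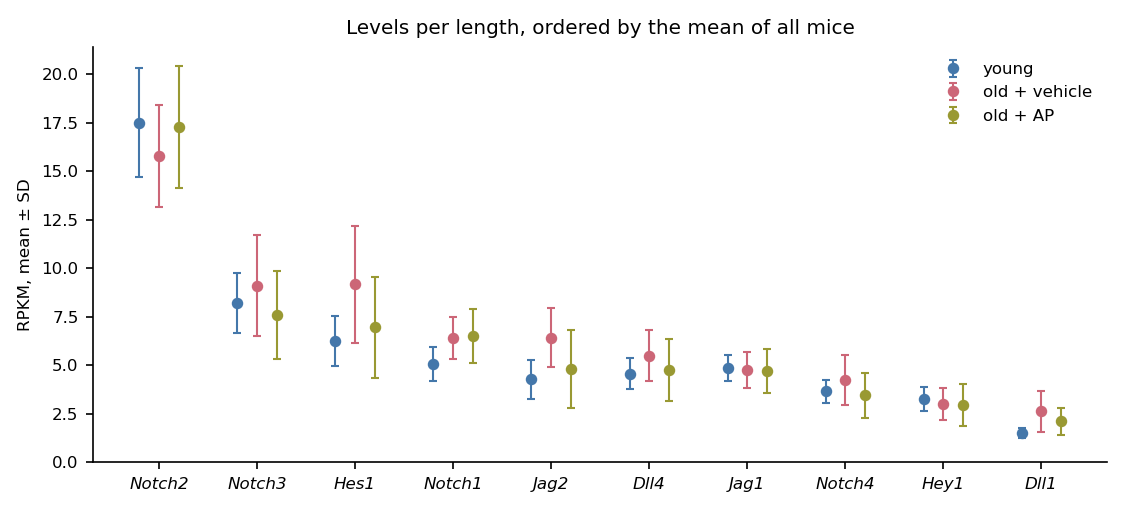
Level per length (RPKM, vertical axis) of the 10 genes, ordered by their mean over all mice, with group means as points and SD as bars (12 young mice, 13 given vehicle, 16 given AP). Notch2 lies above every other gene, at 16.9 RPKM over all mice, and Dll1 is lowest, at 2.10 RPKM.

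Groups were compared by edgeR's quasi-likelihood test, adjusted by the Benjamini-Hochberg method over the 19292 genes tested. A call needed an adjusted p under 0.05 together with a change of over 0.5 on the log2 scale in either direction. In old + vehicle-treated against young mice, 3 of the 10 genes were called, all of them higher: the ligands Dll1 and Jag2 and the target Hes1. Among all genes tested, 4.30% were called higher and 4.76% lower. Across the 10 genes the median was 0.24 on the log2 scale, against 0.0066 over all genes. In bulk RNA, more cells of a type and more RNA per cell cannot be told apart.

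**Figure D2:**
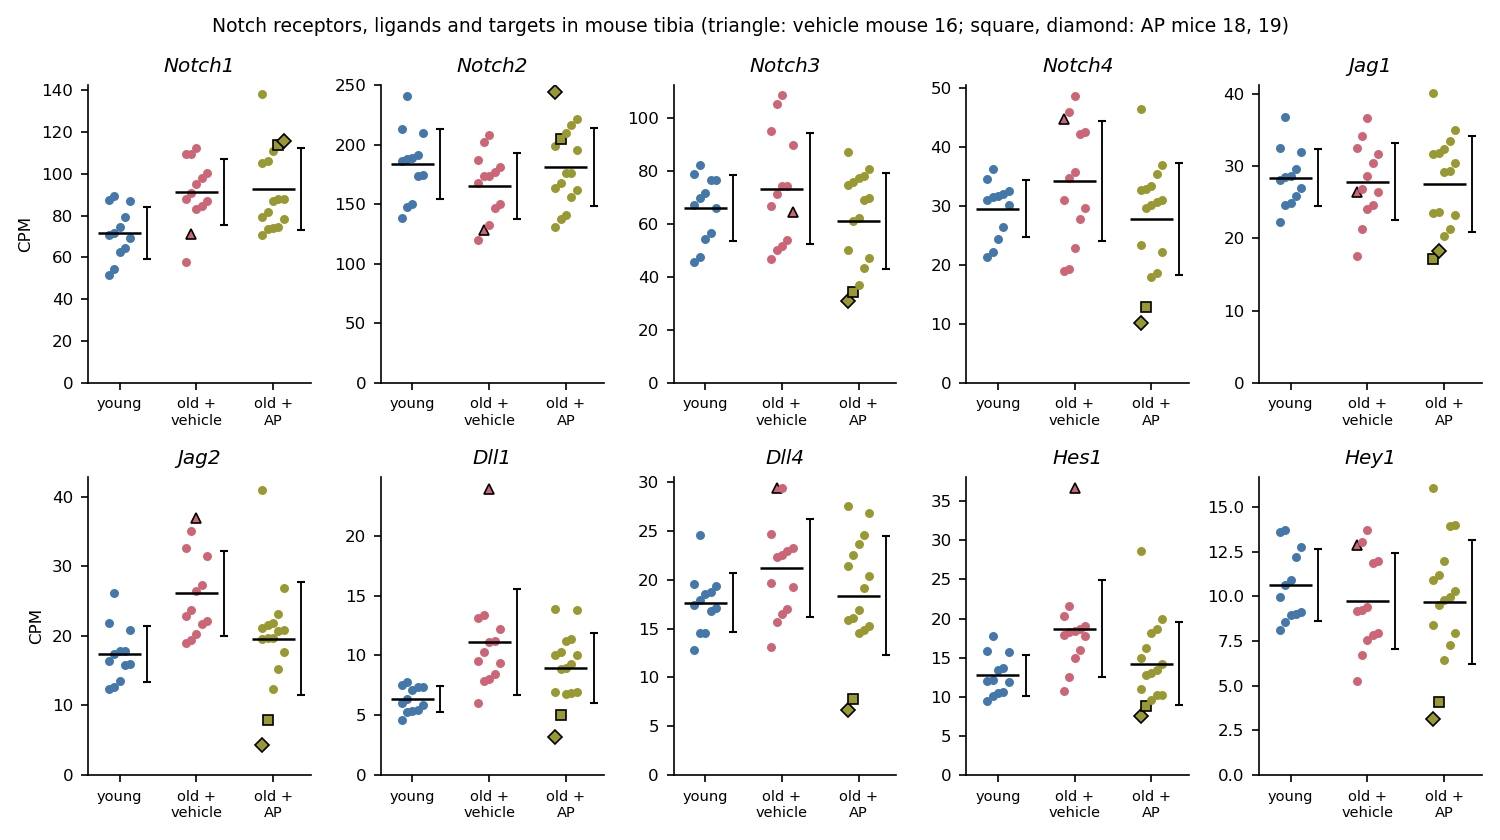
Level (CPM, vertical axes starting at 0) of each gene in each mouse by group, with the group mean as a line and the SD as a bar beside it. Dll1 runs from 6.02 to 23.9 CPM in old + vehicle-treated mice against at most 7.82 CPM in young mice. Vehicle-treated mouse 16 (triangle) is highest for Dll1 and Hes1, and AP-treated mice 18 and 19 (square, diamond) are lowest of all mice for Notch3, Notch4, Jag2, Dll4, Hes1 and Hey1.

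Among the receptors, Notch1 (ENSMUSG00000026923, GRCm38 chromosome 2, 26457903 to 26516663) was the one whose level differed with age by the p-value alone. It ran from 51.7 to 89.5 CPM in young mice (median 71.1), from 57.7 to 112 CPM with vehicle (median 90.8) and from 70.6 to 138 CPM with AP (median 87.4). The groups overlapped, but 12 of 13 vehicle-treated and 15 of 16 AP-treated mice lay above the young median. Its log2 fold change against young mice was 0.35 with vehicle (standard error 0.11, adjusted p = 0.0202 from edgeR) and 0.37 with AP (standard error 0.10, adjusted p = 0.0114), both under the limit of 0.5. Of all genes, 9.56% were higher by the adjusted p alone with vehicle and 9.15% with AP. AP-treated and vehicle-treated mice differed by 0.02 on the log2 scale (standard error 0.10, adjusted p = 0.903).

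Notch2 (ENSMUSG00000027878, chromosome 3, 98013538 to 98150367), the most abundant receptor, ran from 139 to 242 CPM in young mice, from 120 to 208 CPM with vehicle and from 131 to 245 CPM with AP. Its medians were 187, 174 and 176 CPM and the groups overlapped throughout. Its log2 fold change was -0.15 in vehicle-treated against young mice (standard error 0.10, adjusted p = 0.307) and 0.13 in AP-treated against vehicle-treated mice (standard error 0.093, adjusted p = 0.378). Neither passed the test.

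Notch3 (ENSMUSG00000038146, chromosome 17, 32120820 to 32166880), a receptor of vascular smooth muscle and pericytes, had medians of 68.5, 71.2 and 65.7 CPM in young, vehicle-treated and AP-treated mice. Notch4 (ENSMUSG00000015468, chromosome 17, 34564268 to 34588503), a receptor of endothelium, had medians of 31.4, 34.7 and 30.5 CPM. The old groups were wider than the young one for both genes. Notch3 spanned 45.7 to 82.1 CPM in young mice, 46.7 to 109 CPM with vehicle and 30.8 to 87.1 CPM with AP, and Notch4 spanned 21.3 to 36.3, 19.1 to 48.8 and 10.2 to 46.5 CPM. Neither receptor passed the test in any comparison. The log2 fold change in AP-treated against vehicle-treated mice was -0.26 for Notch3 (standard error 0.15, adjusted p = 0.263) and -0.30 for Notch4 (standard error 0.16, adjusted p = 0.249). The lowest AP-treated mice were 18 and 19 for both, and without them these values were -0.18 and -0.19.

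Dll1 (ENSMUSG00000014773, chromosome 17, 15367354 to 15376872), a Delta-like ligand, rose with age and had the largest log2 fold change of the 10 genes. It ran from 4.62 to 7.82 CPM in young mice (median 6.19), from 6.02 to 23.9 CPM in vehicle-treated mice (median 10.2) and from 3.20 to 13.9 CPM in AP-treated mice (median 9.11). Above the highest young mouse lay 12 of 13 vehicle-treated mice, as did 10 of 16 AP-treated mice. The log2 fold change with vehicle was 0.81 (standard error 0.18, adjusted p = 0.00124), and it was called without mouse 16, the highest, at 0.66 (adjusted p = 0.00354). With AP it was 0.50 against young mice, just under the limit before rounding (standard error 0.17, adjusted p = 0.0380). Without AP-treated mice 18 and 19, which were the lowest of their group, it was 0.60 (adjusted p = 0.00648) and was called. In the annotation, 867 bases of the Dll1 model (20.5%) are shared with exons of A930024N18Rik on the opposite strand. The strand setting of the counting is not given in the sources used here, so reads there cannot be assigned to either gene. A930024N18Rik itself averaged 32.2 counts.

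Jag2 (ENSMUSG00000002799, chromosome 12, 112908590 to 112929495), a Jagged ligand, was the other ligand that rose with age. It ran from 12.4 to 26.1 CPM in young mice (median 16.9), from 19.01 to 36.98 CPM with vehicle (median 23.7) and from 4.30 to 41.02 CPM with AP (median 20.2). All 13 vehicle-treated mice lay above the young median, although only 6 of them exceeded every young mouse. The log2 fold change with vehicle was 0.59 (standard error 0.19, adjusted p = 0.0263). The call was lost without vehicle-treated mouse 16 (0.54, adjusted p = 0.0505) and with a score of skeletal muscle or of endothelial markers as a covariate (0.41, adjusted p = 0.0549, and 0.40, adjusted p = 0.0995). Of the 8 skeletal muscle markers 1, Acta1, was called higher in the same comparison, and of the 8 endothelial markers 0 were, with medians over the lists of 0.38 and 0.12 on the log2 scale. By the adjusted p alone 1 endothelial marker, Cdh5, was higher, at 0.44 (adjusted p = 0.0103), with 12 of 13 mice above the young median. The summed endothelial markers ran from 464 to 636 CPM in young mice and from 519 to 749 CPM with vehicle.

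Promoter windows, from 250 bases before to 50 after the start of transcription, were matched for 8 of the 10 genes in RefSeq sequences of GRCm38, all but the targets Hes1 and Hey1. Shown are the ligands that rose with age, Dll1 (chr17:15376883-15377182, minus strand) and Jag2 (chr12:112929446-112929745, minus strand), and the receptors that varied most closely together across mice, Notch3 (chr17:32166841-32167140, minus strand) and Notch4 (chr17:34564045-34564344, plus strand), each 5′ to 3′. For Dll1, of 2 windows the one nearest to the annotated start is shown. Capitals mark matches to the N-box CACNAG on either strand, a site that repressors of the Hes family can bind.
Dll1: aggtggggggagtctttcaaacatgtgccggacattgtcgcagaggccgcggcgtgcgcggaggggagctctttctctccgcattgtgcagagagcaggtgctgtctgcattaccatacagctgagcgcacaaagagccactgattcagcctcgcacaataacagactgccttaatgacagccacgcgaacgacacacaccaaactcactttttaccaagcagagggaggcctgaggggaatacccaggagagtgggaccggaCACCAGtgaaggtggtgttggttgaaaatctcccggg
Jag2: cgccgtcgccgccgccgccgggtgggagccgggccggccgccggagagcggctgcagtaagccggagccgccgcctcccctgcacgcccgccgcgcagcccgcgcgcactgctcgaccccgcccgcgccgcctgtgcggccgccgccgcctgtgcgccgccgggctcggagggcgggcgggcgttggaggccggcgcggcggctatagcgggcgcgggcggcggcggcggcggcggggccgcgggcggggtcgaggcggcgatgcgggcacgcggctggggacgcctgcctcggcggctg
Notch3: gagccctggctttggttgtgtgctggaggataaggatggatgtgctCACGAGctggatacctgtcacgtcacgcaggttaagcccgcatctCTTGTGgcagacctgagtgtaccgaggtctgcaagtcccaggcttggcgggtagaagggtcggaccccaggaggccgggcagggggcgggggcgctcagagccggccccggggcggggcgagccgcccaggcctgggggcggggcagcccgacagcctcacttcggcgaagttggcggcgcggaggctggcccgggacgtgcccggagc
Notch4: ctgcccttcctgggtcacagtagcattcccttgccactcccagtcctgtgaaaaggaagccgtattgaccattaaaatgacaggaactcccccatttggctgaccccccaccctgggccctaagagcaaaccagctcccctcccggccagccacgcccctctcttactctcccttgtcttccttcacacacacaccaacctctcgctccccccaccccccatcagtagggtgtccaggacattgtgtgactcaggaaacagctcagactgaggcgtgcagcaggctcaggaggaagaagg
Of the 8 promoters, 5 held an N-box, which 42.5% of all 32851 promoters held. The RBPJ core TGGGAA was in 0 of 8 windows (25.6% of all) and the E-box CACGTG in 0 of 8 (7.15% of all), counted on both strands with overlaps allowed. These letters describe the windows and no more, and the Notch1 window lies 12841 bases from the annotated start. The Jag2 window was 86.0% G and C, those of Notch3, Notch4 and Dll1 70.0%, 58.3% and 56.3%, and the median promoter 52.7%.

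Jag1 and Dll4 were not called in any comparison. Jag1 (ENSMUSG00000027276, chromosome 2, 137081456 to 137116644) had medians of 28.3, 26.9 and 29.3 CPM in young, vehicle-treated and AP-treated mice, within overall limits of 17.1 and 40.1 CPM, and its log2 fold change with vehicle was -0.03 (standard error 0.12, adjusted p = 0.890). With the endothelial score as a covariate it was -0.22 (adjusted p = 0.0186). Dll4 (ENSMUSG00000027314, chromosome 2, 119325784 to 119335962), the ligand of sprouting and arterial endothelium, had medians of 17.6, 22.3 and 18 CPM. Its values ran from 12.8 to 24.5 CPM in young mice, from 13.1 to 29.4 CPM with vehicle and from 6.65 to 27.6 CPM with AP. The log2 fold change of Dll4 with vehicle was 0.26 (standard error 0.16, adjusted p = 0.260), with 9 of 13 mice above the young median.

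Hes1 (ENSMUSG00000022528, chromosome 16, 30064384 to 30067796), a basic helix-loop-helix repressor induced by Notch and by other signals, rose with age. It ran from 9.49 to 17.8 CPM in young mice (median 12.1), from 10.7 to 36.7 CPM with vehicle (median 18.2) and from 7.54 to 28.6 CPM with AP (median 13.2). Of the vehicle-treated mice 12 of 13 lay above the young median and 8 above every young mouse. The log2 fold change was 0.55 (standard error 0.17, adjusted p = 0.0179). Without mouse 16, which was the highest by far, it was 0.43 (adjusted p = 0.0509). With the endothelial score as a covariate it was 0.34 (adjusted p = 0.0774), and with the skeletal muscle score 0.49 (adjusted p = 0.0259), under the fold limit.

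Hey1 (ENSMUSG00000040289, chromosome 3, 8663359 to 8667256), the other target, had medians of 10.3, 9.26 and 9.91 CPM in young, vehicle-treated and AP-treated mice. It spanned 8.13 to 13.7, 5.26 to 13.7 and 3.12 to 16.1 CPM, so the groups overlapped and both old groups reached lower than the young one. Its log2 fold change with vehicle was -0.13 (standard error 0.18, adjusted p = 0.670), and -0.40 with the endothelial score as a covariate (adjusted p = 0.0317). The difference between Hes1 and Hey1 in their change with age was not tested.

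Between the old groups, AP against vehicle, edgeR called 0 of the 10 genes, and DESeq2 also called 0. Among all genes, edgeR called 0.0726% and DESeq2 1.27% in either direction. At an unadjusted p under 0.05 there were 2 of the 10, Jag2 and Hes1, whereas 23.9% of all genes reached that level. The log2 fold change of Jag2 was -0.41 (standard error 0.18, unadjusted p = 0.0252, adjusted p = 0.153), with 14 of 16 AP-treated mice below the vehicle median. That of Hes1 was -0.40 (standard error 0.16, unadjusted p = 0.0152, adjusted p = 0.125), with 13 of 16 mice below it. Dll1 stood at -0.31 (standard error 0.16, adjusted p = 0.238). The sign was negative for 8 of the 10 genes, with a median of -0.23 against -0.0037 over all genes. Without AP-treated mice 18 and 19 and vehicle-treated mouse 16, the values were -0.23 for Jag2, -0.19 for Hes1 and -0.06 for Dll1. Leaving out AP-treated mouse 9, whose Jag2 level of 41.02 CPM was the highest of its group, gave a call for Jag2 at -0.52 (adjusted p = 0.0444). Of 29 fits that each left out 1 mouse, the remaining 28 called 0 of the 10 genes.

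In old + AP-treated against young mice, 0 of the 10 genes were called by edgeR, while 3.73% of all genes were called higher and 4.85% lower. At an unadjusted p under 0.05 there were 2 of the 10, Notch1 and Dll1, against 32.2% of all genes. DESeq2 called 1, Dll1, and called 4.04% of all genes higher. Jag2 and Hes1 stood at 0.17 (standard error 0.18, adjusted p = 0.540) and 0.15 (standard error 0.16, adjusted p = 0.537). Without AP-treated mice 18 and 19, the lowest of all mice for both, they stood at 0.30 (adjusted p = 0.138) and 0.23 (adjusted p = 0.337). Both age comparisons share the young mice, and both comparisons with vehicle-treated mice share those.

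**Figure D3:**
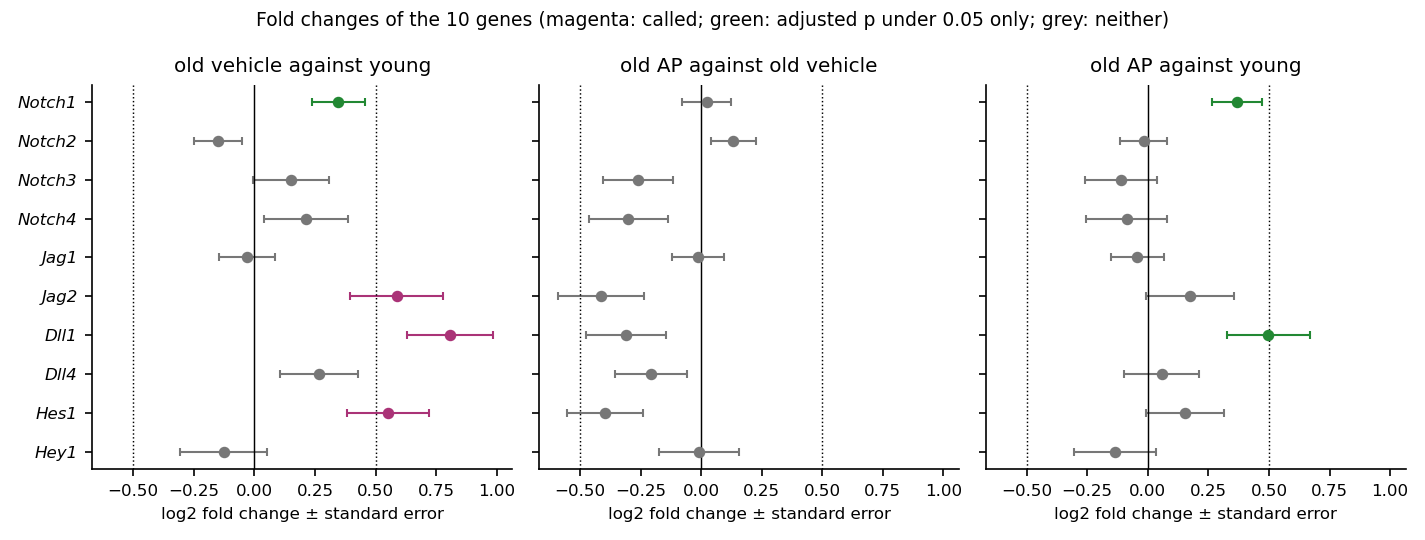
Log2 fold change (horizontal axes) with its standard error for the 10 genes in the 3 comparisons, with dotted lines at the limits of -0.5 and 0.5. Dll1 (0.81), Jag2 (0.59) and Hes1 (0.55) are called in old + vehicle-treated against young mice, no gene is called between AP and vehicle, and Dll1 against young mice lies on the limit with AP.

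Of 45 further genes of the pathway, 41 were tested. With vehicle against young 3 were called higher and 1 lower, where all genes gave 4.30% and 4.76%. With AP against young 1 was called higher and 2 lower, where all genes gave 3.73% and 4.85%. Between AP and vehicle edgeR called 0 and DESeq2 0. At an unadjusted p under 0.05 there were 10 (24.4%) in that comparison, near the 23.9% of all genes. The medians of these 41 genes were 0.04, 0.04 and -0.03 on the log2 scale. Among 3 tested ligand-like genes, Dlk1 and Dner moved in opposite directions. Dlk1, a membrane protein of the Delta-like family that blocks differentiation of fat cells, rose from a young mean of 0.282 ± 0.173 CPM (SD, n = 12). It was 0.734 ± 0.304 CPM with vehicle (SD, n = 13) and 0.559 ± 0.273 CPM with AP (SD, n = 16), with log2 fold changes of 1.38 (adjusted p = 0.000554) and 0.99 (adjusted p = 0.00963). Dner, a Delta-like transmembrane protein known from neurons, fell from 3.82 ± 0.987 to 1.13 ± 0.725 and 0.783 ± 0.583 CPM in the same order, and every old mouse lay below the young median. Its log2 fold changes were -1.76 (adjusted p = 0.000327) and -2.29 (adjusted p = 4.49e-06).

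None of 4 tested target genes beside Hes1 and Hey1 was called by edgeR in any comparison. Hes5, a target that did not pass the filter on low counts, was called lower by DESeq2 with AP against young (-1.08, adjusted p = 0.0434). Heyl, a relative of Hey1, stood at 0.03 (adjusted p = 0.922) with vehicle against young, and Nrarp, a feedback inhibitor of Notch signalling, at 0.20 (adjusted p = 0.386). Of 7 genes of the nuclear complex, Rbpj, which binds DNA for the complex, had 51.0 ± 4.01, 50.7 ± 3.44 and 52.3 ± 4.21 CPM in the 3 groups and a log2 fold change of -0.01 with vehicle (standard error 0.047, adjusted p = 0.949).

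None of 6 genes of receptor maturation and 9 of receptor cleavage was called. By the adjusted p alone, 3 of these 15 were higher with vehicle against young, where 9.56% of all genes were. Furin, a protease that cuts the Notch precursor, stood at 0.36 (adjusted p = 0.00530), Rfng, a relative of Lfng, at 0.17 (adjusted p = 0.0446) and Aph1a, a gamma-secretase subunit, at 0.23 (adjusted p = 0.00162). Lfng, a glycosyltransferase that tunes which ligand a Notch receptor answers to, stood at 0.03 (adjusted p = 0.904) with vehicle against young. Of 12 genes of endocytosis and turnover, Neurl1a, a ubiquitin ligase that acts on Notch ligands, rose with vehicle by 0.87 (adjusted p = 0.0199), from 55.2 ± 25 CPM (SD, n = 12) to 101 ± 40.3 CPM (SD, n = 13). With the skeletal muscle score as a covariate it was not called. By the adjusted p alone, Numb, an adaptor that opposes Notch, was also higher with vehicle at 0.15 (adjusted p = 0.0404). Itch, a ubiquitin ligase that acts on Notch, was lower at -0.27 (adjusted p = 0.000729), with 13 of 13 mice below the young median, where 9.80% of all genes were lower. Numbl, a relative of Numb, fell by 0.54 on the log2 scale in AP-treated against young mice (adjusted p = 0.0135), and was not called without AP-treated mice 18 and 19 or with the neutrophil score as a covariate. Over 40 fits it was called in 35, with log2 fold changes from -0.65 to -0.43.

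Across mice, Notch1 and Notch2 varied together, and so did the other 8 genes, although this division depended on the group. Pearson's r and Spearman's rho were computed over the 41 mice from log2 CPM after each group's mean had been removed, with permutation tests of 100000 resamples within groups for 45 pairs. Of these, 31 pairs passed an adjusted p of 0.05. This share has to be read against a wide background, since 42.1% of the pairs among 15541 expressed genes had an r at least as far from 0 as the smallest that passed (0.366). Genes measured in the same libraries are not independent. Notch1 and Notch2 stood at r = 0.81 and rho = 0.79 (adjusted p = 2.5e-05, based on the smallest p that the permutations can give). Among the other 8 genes, a division made after the values were seen, all 28 pairs passed the threshold, with r from 0.44 to 0.88 and a median of 0.73, a value that 4.18% of all pairs reach. Between Notch1 or Notch2 and the other 8, r ran from -0.45 to 0.30, and 2 of 16 pairs passed, Notch2 with Jag2 (-0.45, adjusted p = 0.00593) and with Dll1 (-0.37, adjusted p = 0.0354). By rho, Notch2 with Dll1 did not pass (-0.29, permutation test, adjusted p = 0.118). Neither of these 2 pairs passed by r without AP-treated mice 18 and 19. Without them 3 other pairs did, all positive, Notch1 with Notch3 (0.55, adjusted p = 0.000995), Notch2 with Notch3 (0.45, adjusted p = 0.00992) and Notch1 with Notch4 (0.40, adjusted p = 0.0246).

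Within groups, the r values of the 2 kinds of pair did not overlap with AP, the group that holds mice 18 and 19, but did in young mice and with vehicle. Among the other 8 genes the median r was 0.34 in young mice (from -0.03 to 0.69), 0.59 with vehicle (from -0.11 to 0.86) and 0.84 with AP (from 0.69 to 0.94). Between Notch1 or Notch2 and these 8 it was 0.07 in young mice, 0.05 with vehicle and -0.39 with AP. Notch3 was at 0.79 with Notch1 in young mice, 0.58 with vehicle and -0.05 with AP. With Notch2 it was at 0.69, 0.62 and -0.24 in the same order. These differences between groups were not tested.

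The closest pair was Notch3 and Notch4, at r = 0.88 and rho = 0.88 (adjusted p = 2.5e-05). It held within each group, at 0.69 in young, 0.86 in vehicle-treated and 0.94 in AP-treated mice. Jag2 and Dll1, the ligands that rose with age, varied together at r = 0.79 and rho = 0.78 (adjusted p = 2.5e-05), and at 0.67 without the 2 mice farthest from the median of Jag2. Hes1 and Hey1, the targets, varied together at r = 0.77 and rho = 0.73 (adjusted p = 2.5e-05). Without mice 18 and 19, r among the other 8 genes was lower, from 0.14 to 0.84 with a median of 0.605, and 24 of the 28 pairs passed, while Notch1 and Notch2 stood at 0.80. With an endothelial marker score held constant, 16 of the 28 pairs passed. The weakest pair, Jag1 and Jag2, stood at r = 0.44 and rho = 0.28, where rho did not pass (permutation test, adjusted p = 0.126), and at r = 0.14 without mice 18 and 19.

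**Figure D4:**
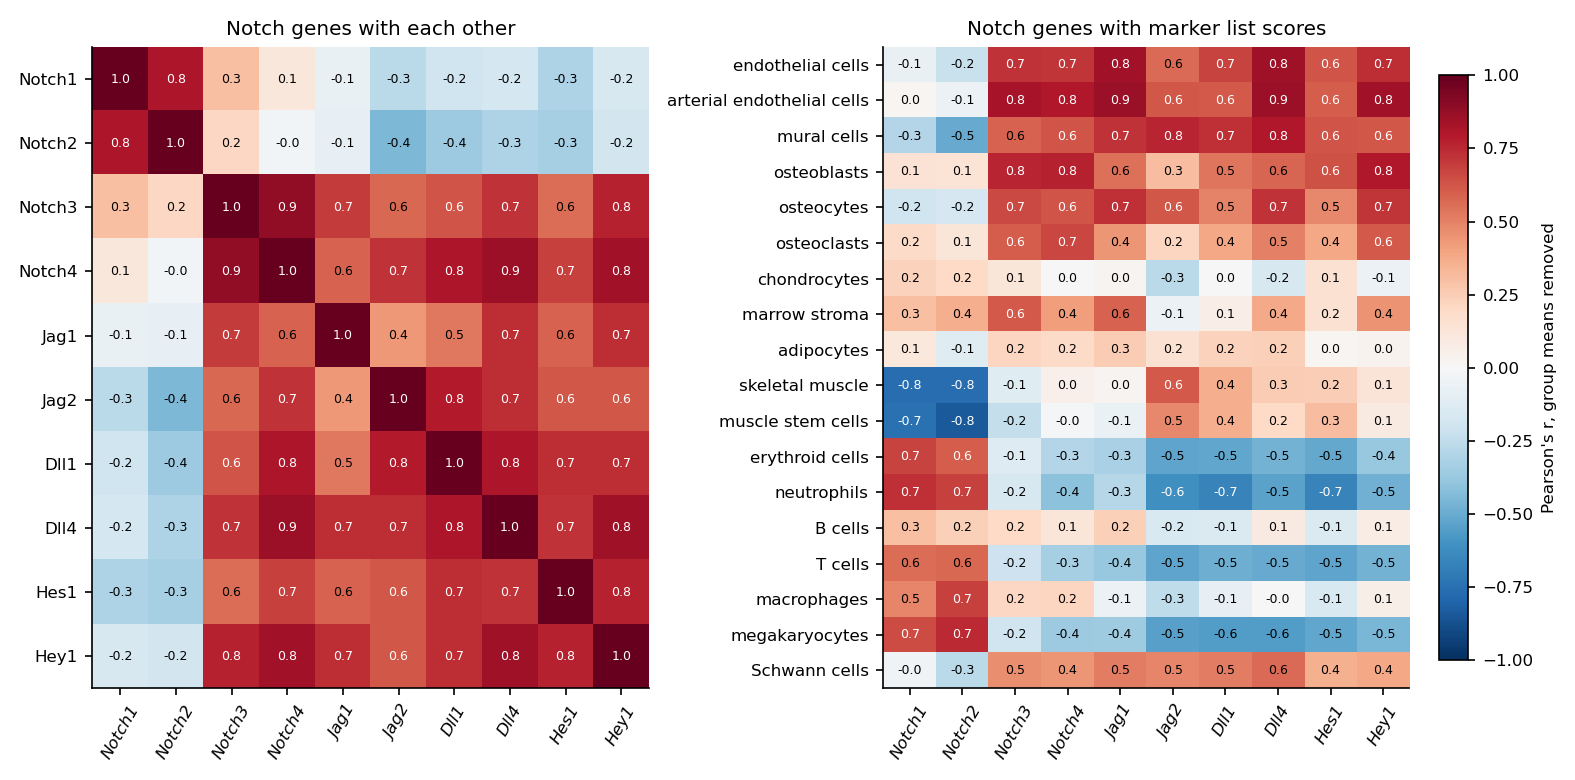
Pearson's r (colour, from -1 to 1) over 41 mice after group means were removed, between the 10 genes (left) and between each gene and the score of 18 marker lists (right). Notch1 and Notch2 are at 0.81 with each other, and the other 8 genes run from 0.44 to 0.88 with each other.

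Of 180 relations between a gene and a list, 99 passed an adjusted p of 0.05 by r and 83 by rho. The r of 56.1% of the 180 was at least as far from 0 as the smallest that passed (0.36), and so was that of 39.3% of the relations between all 15541 expressed genes and these lists. Dll4 varied with the endothelial list, at r = 0.85 and rho = 0.79 (permutation test, adjusted p = 6e-05), and at 0.76 without mice 18 and 19. Jag1 was closest to the arterial endothelial list, with r = 0.86 and rho = 0.89 (adjusted p = 6e-05), and Hey1 was at 0.84 and 0.70 for that list. Hey1 was also at r = 0.80 and rho = 0.83 with the osteoblast list. Notch3 was at r = 0.83 and rho = 0.81 with the arterial list, at 0.76 and 0.82 with the osteoblast list, and at 0.59 and 0.54 with the mural list. Of the genes called with age, Jag2 and Dll1 were closest to the mural list over all mice, at r = 0.76 and 0.73. Without mice 18 and 19 the mural values were 0.595 for Jag2 and 0.585 for Dll1. Dll1 was then at 0.587 with the chondrocyte list, against 0.005 over all mice, and at -0.589 with the neutrophil list. Hes1 stood nearly alike with the osteoblast, endothelial and mural lists, at 0.64, 0.63 and 0.63. Without mice 18 and 19 these were 0.58, 0.53 and 0.52, and its r with the chondrocyte list was 0.60, against 0.15 with them. For Notch3, Notch4, Jag1, Dll4 and Hey1, r with the chondrocyte list was then 0.67, 0.65, 0.53, 0.56 and 0.65. It was 0.39 for Jag2, 0.053 for Notch1 and 0.012 for Notch2. Over all mice, the 3 genes called with age ran against the neutrophil list, at -0.62 for Jag2, -0.67 for Dll1 and -0.67 for Hes1. With skeletal muscle, r was 0.62 for Jag2, 0.36 for Dll1 and 0.25 for Hes1, and the last did not pass (permutation test, adjusted p = 0.209). For Dll1, rho was 0.24 and did not pass (permutation test, adjusted p = 0.199). Without mice 18 and 19, r with skeletal muscle was 0.40 for Jag2, 0.075 for Dll1 and 0.039 for Hes1. Notch1 and Notch2 ran with some marrow lists, at 0.73 and 0.69 for neutrophils and 0.65 and 0.74 for megakaryocytes, but the B cell list passed for neither (0.30, adjusted p = 0.119, and 0.24, adjusted p = 0.235, permutation test). Nor did the endothelial list (-0.08, adjusted p = 0.730, and -0.22, adjusted p = 0.269). Both ran against skeletal muscle at -0.76 and -0.77. For Notch2 and muscle, rho was -0.76, and r was -0.72 without the 2 mice farthest from the median of the muscle score. Which cells the transcripts came from was not tested.

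**Figure D5:**
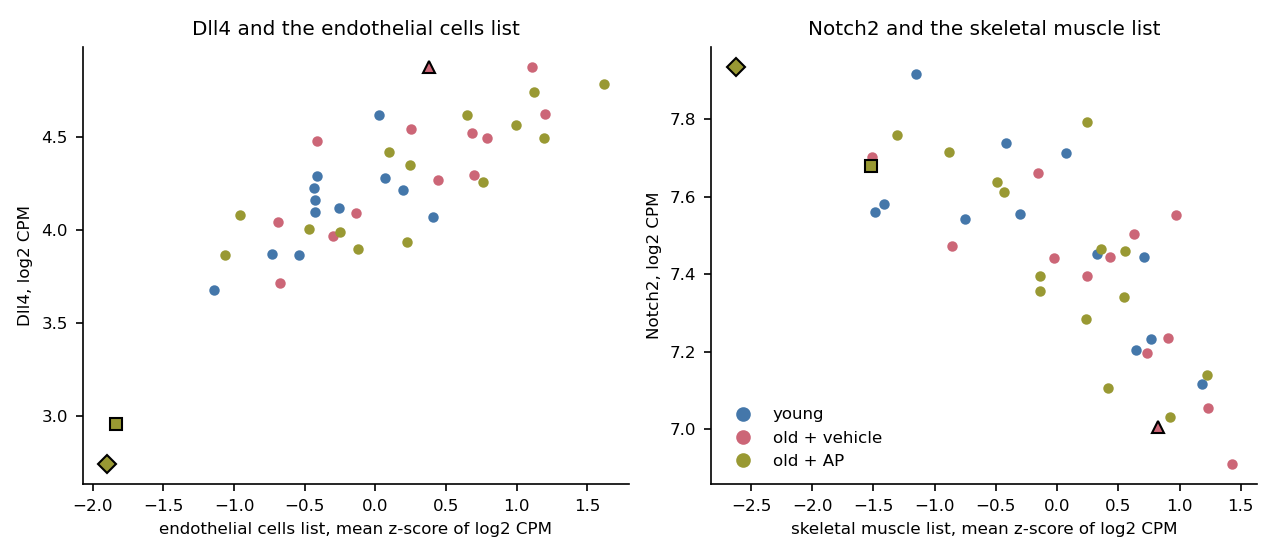
Dll4 (left) against the score of 8 endothelial markers and Notch2 (right) against that of 8 skeletal muscle markers, as log2 CPM against the mean z-score, with 1 point per mouse. Dll4 rises with its list and AP-treated mice 18 and 19 (square, diamond) lie lowest on both axes at the left. Notch2 falls as the muscle score rises.

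The genes most like each of the 10, by r over the 41 mice among 15531 others, are given as a description. Jag2 was nearest to Lamb2, a laminin chain of basement membranes (r = 0.94), and Dll1 to Nos3, the endothelial nitric oxide synthase (0.89), and then to the laminin chain Lama5 (0.88). Hes1 was nearest to Gna11, a G protein subunit (0.88), and then to the laminin chain Lamc1 (0.85). Dll4 was nearest to Egfl7, a secreted protein of endothelium (0.91), and Cdh5 (0.91), and Jag1 to Clec14a, an endothelial lectin (0.88). Notch3 was nearest to Slit3 and Ephb4 (0.92 each), Notch4 to Mpnd (0.94) and Id3 (0.93), and Hey1 to H2afy2 (0.92). Notch1 was nearest to Plekhg3 (0.94) and Prkd2 (0.93), and Notch2 to Wasf2, a regulator of actin (0.92).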

How the data were processed

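RNA of 41 tibiae was sequenced by the authors on a HiSeq2000 and mapped to mm10 (GRCm38). The submitters' processing notes name TopHat2 2.0.6 and HTSeq. The annotation release and the strand setting are not given in the sources used here. What the authors deposited was a table of raw counts, genes by mice. In R 4.3.3, edgeR 4.0.16 gave TMM factors, its filter on low counts (19292 genes kept), log2 CPM (prior count 2) and the quasi-likelihood test in 1 model of 3 groups. The standard error is the fold change divided by the root of F. DESeq2 1.42.0 was an alternative, beside other scaling, no filter, 2-group fits, marker score covariates and each mouse left out. Total counts had a median of 47774880. Of 264 pairs of mice within groups, the closest differed by 34.8 times the counting variance, so each mouse was 1 replicate. Separate litters or batches are not named in the labels, so such effects cannot be told apart from group. Marker scores average the z-scores of a list's genes. Scripts were tested on simulated data. The genes followed and the lists were chosen with earlier results of these data known. The call rule followed the study's methods. Named were the 10 genes, Rbpj, Heyl, Nrarp, Dlk1, Lfng, every pathway gene called except 1 that is not reported here, the genes most alike, and tissue markers. Furin, Rfng, Aph1a, Itch, Numb and Hes5 were named after their values were seen.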

Additional observations from a re-analysis of the deposited data

How the results depend on the processing

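The number of the 10 genes called with vehicle against young was 3. It was 1 with the skeletal muscle score, with the endothelial score and without vehicle-treated mouse 16. Omitting single mice gave 1 to 3. With AP against vehicle it was 0, and 0 to 1 on omitting single mice. With AP against young it was 0, 0 to 1 on omitting single mice (1 in 11 of 28 fits, each time Dll1), 2 by the adjusted p alone, and 1 with DESeq2, with DESeq2's size factors, with the neutrophil score, without AP-treated mice 18 and 19, and without these and vehicle-treated mouse 16. Of 45 gene pairs, 31 passed, and 20 with the endothelial score held constant. Over all genes, 14 were called between AP and vehicle by edgeR, 200 by DESeq2, 137 with the neutrophil score, 1 with the muscle score, and 0 without mice 18 and 19, without mouse 16, without the filter on low counts or with only the 2 groups compared. Omission of mice 18 and 19, of mouse 16, and the neutrophil and osteocyte scores were chosen after seeing the data. No paired analysis was possible because each mouse was in 1 group only and the labels match no mice between groups. No called value changed sign under the alternatives run. Whether depth limited these comparisons was not tested.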
